A study of Homo sapiens with 4 samples.

Results

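The 10 genes described here encode AMP-activated protein kinase (AMPK), its activating kinase, and the core of the mTOR and TSC complexes. They were taken from the deposited table by gene symbol, and each of PRKAA1, PRKAB1, PRKAB2, PRKAG1, STK11, MTOR, RPTOR, RICTOR, TSC1 and TSC2 had 1 row among its 13957 genes. RNA came from MDA-MB-231 Fluc cells, a triple-negative breast cancer line into which a firefly luciferase gene was inserted. There were 2 samples given 50 μM cordycepin, the adenosine analogue 3′-deoxyadenosine, and 2 samples given the vehicle DMSO, each for 2 h. All 4 came from the same reporter line, and no label says whether duplicates were separate cultures. The design compares cordycepin with DMSO, and the paper used it to ask whether the response of another breast cancer line recurs here. The fold changes and p-values in the table belong to a comparison made by the authors and were not used here, so the levels below are means over treated and control libraries together, and no change with cordycepin is given. Each level is therefore 1 value per gene, without a value per library or an SD, and the depth of each library is unknown. Neighbouring levels cannot be said to differ, since the spread between libraries is not known.

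AMPK is a sensor of cellular energy that works as a trimer of a catalytic alpha, a scaffold beta and a nucleotide-binding gamma subunit. The kinase LKB1, encoded by STK11, activates it by phosphorylating the alpha subunit. mTOR is a kinase that promotes growth and protein synthesis in complex 1, which is defined by Raptor, and acts on AKT in complex 2, which is defined by Rictor. The TSC1 and TSC2 proteins together hold complex 1 in check by keeping the small GTPase RHEB inactive, and AMPK can phosphorylate both TSC2 and Raptor to restrain complex 1.

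The 10 genes lay in the middle and upper part of the expression range. Their median was 5.98 mean log2 CPM (CPM is the count scaled to the library total), at a median percentile of 73.6 among all genes of the table, whose median was 4.58. Of the 10, 9 were above that median and 5 were in the highest 25%. Together they held 0.0683% of the summed mean CPM of the table. The difference between the highest and the lowest of them was 2.43 on the log2 CPM scale. CPM counts more fragments for a longer transcript, and the table gives these genes a median length of 9556.5 bases against 4839 bases for all genes. Genes were therefore compared with each other per kilobase, by dividing CPM by the length in the table. On that scale the median of the 10 genes was 2.68 log2 CPM per kilobase, at a median percentile of 54.5, beside 2.43 over all genes. Here 5 of the 10 were above the median of all genes, and 1 was in the highest 25%. With the length of 1 representative transcript per gene in GENCODE, the medians were 3.60 for the 10 genes and 3.04 over all genes. TSC2 at 3.91 and PRKAB1 at 3.58 were then above the median of all genes as well.

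**Figure D1:**
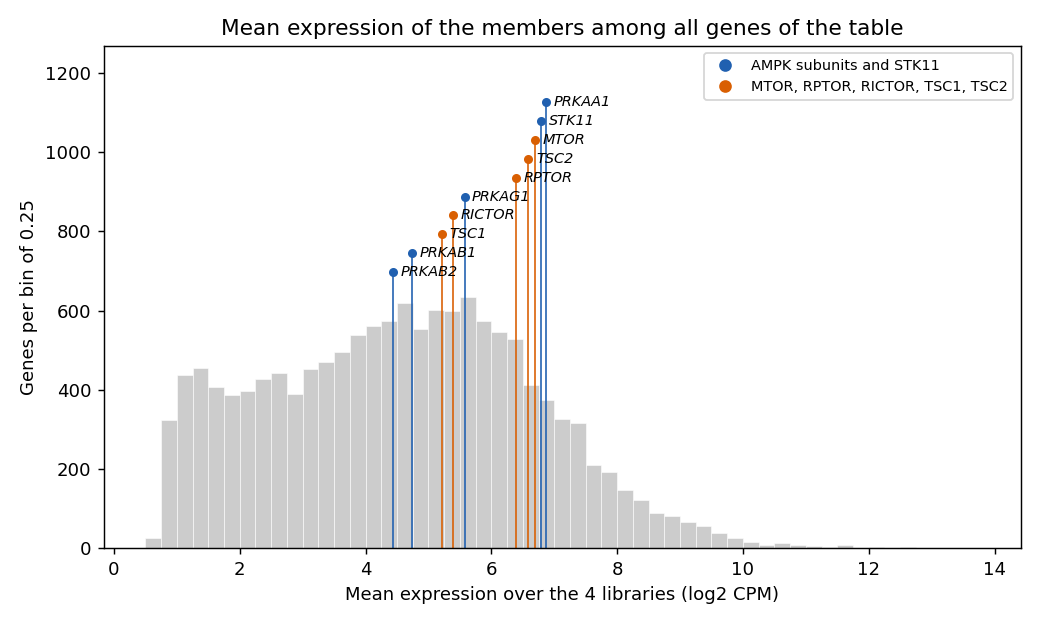
Distribution of mean expression (log2 CPM over the 4 libraries, horizontal axis) as the number of genes in bins 0.25 wide, with a line for each of the 10 genes, whose heights only separate the labels. The lines run from PRKAB2 at 4.44 to PRKAA1 at 6.87, and the median of all genes is 4.58.

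The marker genes of the line were examined first. VIM and CD44, which mark mesenchymal-like breast cancer cells, had mean log2 CPM of 10.45 and 10.57. The receptor tyrosine kinase genes AXL and EGFR had 11.01 and 8.64, and the cytoskeletal linker gene MSN had 9.68. These 5 genes had a median percentile of 99.6. Among the epithelial and hormone receptor genes, the adhesion genes CDH1 and EPCAM were both at 3.68, whereas the keratin gene KRT8 was at 9.11, among the highest genes of the table. The hormone receptor genes ESR1 and PGR and the leukocyte gene PTPRC had no row that could be analysed here. The luminal transcription factor genes GATA3 and FOXA1 had mean log2 CPM of 4.48 and 2.34, and the fibroblast genes COL1A1 and PDGFRB had 3.36 and 3.28.

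Of the AMPK subunit genes, PRKAA1 was highest with the lengths of the table, and PRKAG1 with those of 1 representative transcript per gene in GENCODE. PRKAA1, which encodes the alpha 1 subunit, lies on chromosome 5 at 40759379 to 40798374 of GRCh38, on the minus strand. Its mean log2 CPM of 6.87 was at percentile 86.3, and its level of 4.16 log2 CPM per kilobase was the highest of the 10 genes with that length. PRKAG1 (chromosome 12, 49002274 to 49018807, minus strand) encodes the gamma 1 subunit, which binds AMP, ADP and ATP. It had a mean log2 CPM of 5.57 and a level of 3.51 log2 CPM per kilobase, 1.56-fold below PRKAA1. With representative transcripts the direction turned, with PRKAG1 at 4.85 and PRKAA1 at 4.48. In GENCODE release 44, 49.5% of its exon bases are shared with the exons of ENSG00000288710, an annotated protein-coding gene on the same strand, and 12.3% with the antisense gene DDN-AS1. Neither of these had a row that could be analysed here, and whether the annotation used for counting held them is not known. The value of PRKAG1 may thus depend on how reads from shared exons were counted.

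The genes of the beta subunits, which tether alpha to gamma, were below PRKAA1 and PRKAG1 with either length. PRKAB1 (chromosome 12, 119667864 to 119681624, plus strand) had a mean log2 CPM of 4.73 and a level of 2.14 log2 CPM per kilobase. PRKAB2 (chromosome 1, 147155106 to 147172550, minus strand) had a mean log2 CPM of 4.44, at percentile 47.6, and was the one gene of the 10 below the median of all genes on that scale. Its level was 1.99 log2 CPM per kilobase. The levels of the paralogues thus differed by 0.15 on the log2 CPM per kilobase scale. This near equality depended on the length of PRKAB1, for which the table gives 6042 bases and the representative transcript in GENCODE, of 7 exons, has 2219. With lengths of representative transcripts PRKAB1 was at 3.58 and PRKAB2 at 2.02 log2 CPM per kilobase, a 2.95-fold ratio. PRKAA1 was 4.05-fold above PRKAB1 with the lengths of the table, and 1.86-fold above it with representative transcripts.

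Transcripts of other subunits were measured too. PRKAA2, for the alternative catalytic subunit alpha 2, had a level of 1.31 log2 CPM per kilobase, and PRKAG2, for gamma 2, had 2.11. Their mean log2 CPM were 4.54 and 6.14. PRKAG3, which is known mainly from skeletal muscle, had no row that could be analysed here. Each of the 3 kinds of subunit therefore had at least 1 gene with a row, and for alpha and gamma PRKAA1 and PRKAG1 had the highest levels per kilobase.

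STK11 (chromosome 19, 1177558 to 1228431, plus strand) had a mean log2 CPM of 6.79 and a level of 3.65 log2 CPM per kilobase, second to PRKAA1. Its order relative to PRKAA1 turned with the length used. The table gives 8811 bases and the representative transcript has 3293, and with the latter STK11 was at 5.07 and PRKAA1 at 4.48 log2 CPM per kilobase. LKB1 acts in a complex with a STRAD pseudokinase and the scaffold protein MO25. CAB39, which encodes MO25, had a level of 4.39 log2 CPM per kilobase, the highest of 7 genes for LKB1 partners and other upstream kinases. The lowest of these was STRADA at -1.07, while the other STRAD gene, STRADB, was at 3.14. With representative transcripts STRADA was at 1.26 and STRADB at 3.66 log2 CPM per kilobase.

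**Figure D2:**
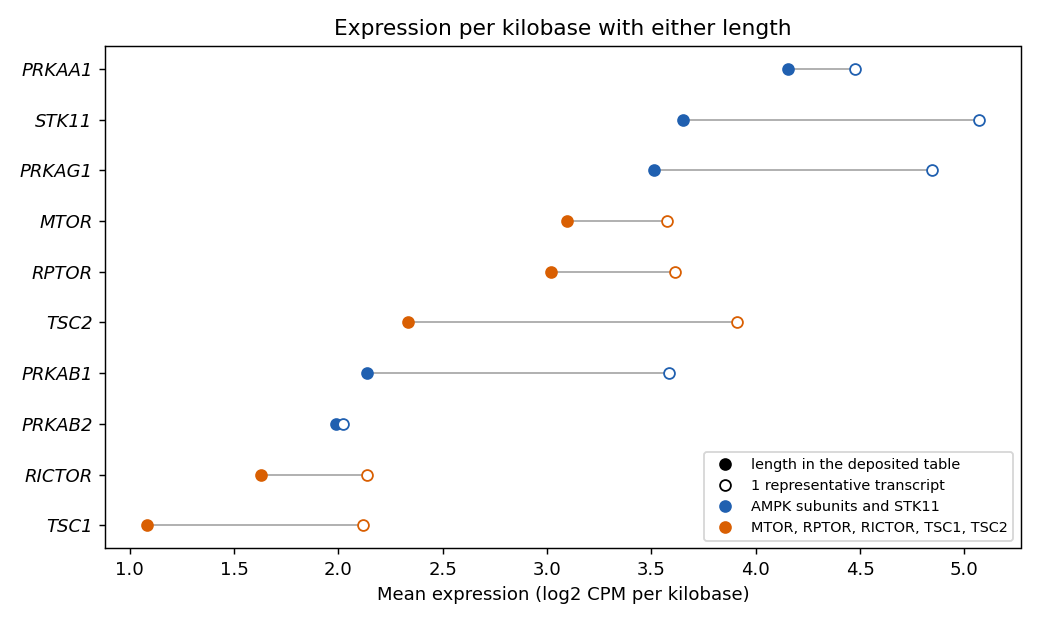
Mean expression per kilobase (log2 CPM per kilobase, horizontal axis) of the 10 genes, with the length in the deposited table (filled) and that of 1 representative GENCODE transcript (open). PRKAA1 is highest at 4.16 with the former, STK11 at 5.07 with the latter, and PRKAB2 moves least, from 1.99 to 2.02.

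MTOR and RPTOR had nearly the same level per kilobase of exons. MTOR (chromosome 1, 11106535 to 11262551, minus strand), whose representative transcript has 58 exons, encodes the kinase of both complexes. It had a mean log2 CPM of 6.70, at percentile 84.4, and a level of 3.09 log2 CPM per kilobase. RPTOR (chromosome 17, 80544819 to 80966371, plus strand) encodes Raptor, which recruits the substrates of complex 1. Its mean log2 CPM was 6.39 and its level was 3.02 log2 CPM per kilobase. The 2 genes differed by 0.07 on the log2 CPM per kilobase scale, and with representative transcripts RPTOR was the higher one, at 3.61 against 3.57. RICTOR (chromosome 5, 38937920 to 39074399, minus strand), for the scaffold of complex 2, was lower. Its mean log2 CPM was 5.39 and its level was 1.63 log2 CPM per kilobase, 2.62-fold below RPTOR and 2.76-fold below MTOR. With representative transcripts these ratios were 2.78 and 2.71. With the gene span as length, RPTOR was below RICTOR, at -2.33 against -1.70, and MTOR was at -0.59 log2 CPM per kilobase. RICTOR and PRKAA1 lie on the same chromosome arm, and RICTOR shares 229 exon bases at its end with OSMR on the opposite strand, which had a mean log2 CPM of 7.05.

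The genes of the TSC complex had unequal levels. TSC2 (chromosome 16, 2047967 to 2089491, plus strand), which encodes the GTPase-activating subunit tuberin, had a mean log2 CPM of 6.59 and a level of 2.33 log2 CPM per kilobase. TSC1 (chromosome 9, 132891348 to 132946874, minus strand) encodes hamartin, which stabilises tuberin. Its mean log2 CPM was 5.22 and its level of 1.08 log2 CPM per kilobase was the lowest of the 10 genes with the lengths of the table. With representative transcripts PRKAB2 was lowest, at 2.02, and TSC1 was at 2.12. TSC2 was thus 2.38-fold above TSC1, and 3.46-fold above it with representative transcripts. Both genes have long merged exons in the table, 19128 bases for TSC2 and 17600 for TSC1, where the representative transcripts have 6415 and 8598. Over the 10 genes the ratio of the length in the table to that of the representative transcript ran from 1.02 for PRKAB2 to 2.98 for TSC2. The last exons of TSC2 share 784 bases with PKD1 on the opposite strand, which had a mean log2 CPM of 6.27. The libraries kept the strand of the RNA, and whether strand was used in counting is not given in the sources used here.

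In order, the levels with the lengths of the table were 4.16 for PRKAA1, 3.65 for STK11, 3.51 for PRKAG1, 3.09 for MTOR, 3.02 for RPTOR, 2.33 for TSC2, 2.14 for PRKAB1, 1.99 for PRKAB2, 1.63 for RICTOR and 1.08 for TSC1, all in log2 CPM per kilobase. PRKAA1 was 8.42-fold above TSC1, and 5.14-fold above it with representative transcripts, with which STK11 was highest and PRKAB2 lowest. The median of the AMPK subunits with STK11 was 3.51 and that of MTOR, RPTOR, RICTOR, TSC1 and TSC2 was 2.33 log2 CPM per kilobase. By mean log2 CPM, which does not correct for length, the medians stood the other way, at 5.57 and 6.39.

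The promoters of the genes were examined for sequence features. RefSeq windows of 300 bases, from 250 before to 50 after the start of a transcript (GRCh38.p14), were found for all 10 genes, with 2 windows for TSC2. Windows of PRKAA1 and TSC1 are shown because these genes had the highest and the lowest level per kilobase with the lengths of the table, and that of RPTOR because it held a TATA motif. Capitals mark GC boxes (GGGCGG on either strand) in the first 2 and TATAAA, read on the opposite strand, in the last. In RPTOR this motif lies near the 5′ end of the window, which begins 250 bases before the start of the transcript. The window of PRKAA1 is chr5:40798128-40798427 (minus strand), that of TSC1 chr9:132944567-132944866 (minus strand), and that of RPTOR chr17:80544588-80544887 (plus strand), each written 5′ to 3′.
PRKAA1: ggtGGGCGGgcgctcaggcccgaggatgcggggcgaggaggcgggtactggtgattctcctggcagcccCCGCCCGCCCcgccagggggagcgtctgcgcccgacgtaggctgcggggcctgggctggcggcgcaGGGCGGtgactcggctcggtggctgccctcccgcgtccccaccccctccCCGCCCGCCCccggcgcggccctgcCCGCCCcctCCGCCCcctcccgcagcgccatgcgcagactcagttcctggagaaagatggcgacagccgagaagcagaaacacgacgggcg
TSC1: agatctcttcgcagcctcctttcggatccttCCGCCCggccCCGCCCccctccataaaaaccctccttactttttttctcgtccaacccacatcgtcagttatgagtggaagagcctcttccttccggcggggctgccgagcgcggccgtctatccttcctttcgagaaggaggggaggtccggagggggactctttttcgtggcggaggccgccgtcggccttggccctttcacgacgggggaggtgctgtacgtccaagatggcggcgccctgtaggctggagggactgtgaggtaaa
RPTOR: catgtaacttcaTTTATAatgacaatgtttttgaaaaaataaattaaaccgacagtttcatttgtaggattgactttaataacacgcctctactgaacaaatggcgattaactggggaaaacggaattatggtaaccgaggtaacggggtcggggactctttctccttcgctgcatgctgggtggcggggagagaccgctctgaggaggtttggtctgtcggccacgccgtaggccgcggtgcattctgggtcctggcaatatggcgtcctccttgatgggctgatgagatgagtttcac

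The promoter of PRKAA1 had a GC content of 77.0% and 8 GC boxes, with overlapping matches counted, and that of TSC1 had 61.7% and 2. STK11, next to PRKAA1 in level with the lengths of the table, had 75.3% and 2. RICTOR, next to TSC1, had 74.0% and 4. Whether these features relate to level was not tested. RPTOR had the lowest GC content, at 48.0%, with 16 CpG dinucleotides and no GC box. The 11 windows of the 10 genes had a median GC content of 68.7% and 35 CpG dinucleotides. The 14304 windows of genes in the table, found for 9764 of its 13957 genes, had medians of 65.0% and 25. All 35116 RefSeq windows had 58.7% and 14. A GC box was present in 9 of the 11 windows, compared with 66.6% of windows of genes in the table and 45.0% of all windows. The window of PRKAB1 and that of RPTOR were those without one. A CCAAT box (CCAAT on either strand) was present in 4 of the 11 windows, those of MTOR, PRKAB2, RICTOR and STK11, in 34.9% of windows of genes in the table and in 34.6% of all windows. MTOR and STK11 had 3 each. TATAAA was present in the window of RPTOR, in 5.98% of windows of genes in the table and in 11.5% of all windows. The E-box CACGTG was present in 1 window of TSC2, in 9.22% of windows of genes in the table and in 7.26% of all windows. The windows of STK11, TSC1 and PRKAB1 lie wholly downstream of where the table starts these genes. That of STK11 begins at 1205528 and the gene at 1177558, and that of TSC1 ends at 132944866 where the gene, on the minus strand, begins at 132946874. For PRKAB1 the window begins at 119667883 and the gene at 119667864. These matches describe letters in the windows and do not show that a factor binds there.

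Other genes of the pathway were listed by role, and 64 of 70 had a row. Their median was 2.21 log2 CPM per kilobase, at a median percentile of 46.0, compared with 2.68 and 54.5 for the 10 genes. With representative transcripts their median was 3.12, beside 3.60 for the 10 genes and 3.04 over all genes. The shared subunit of both mTOR complexes, MLST8, was at 3.44. In the list of other complex subunits and assembly factors MAPKAP1, which encodes the complex 2 subunit SIN1, was at 4.38, and AKT1S1, for the complex 1 subunit PRAS40, was at 4.37. With representative transcripts AKT1S1 was the higher one, at 6.07 against 5.39. The lowest was PRR5L at 0.47, and at 1.25 with representative transcripts. DEPTOR, an inhibitor of both complexes, and PRR5 had no row that could be analysed here. RHEB, the GTPase that activates complex 1, was at 5.25 log2 CPM per kilobase, above each of the 10 genes, while the third TSC subunit gene TBC1D7 was at 0.50. With representative transcripts TBC1D7 was at 3.20, against 2.12 for TSC1. RHEBL1 had no row that could be analysed here.

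Complex 1 is brought to the lysosome by Rag GTPases and the Ragulator complex, and the GATOR complexes and amino acid sensors control the Rags. All 9 Rag and Ragulator genes had a row, with a median of 4.01 log2 CPM per kilobase. They ran from LAMTOR1 at 5.16 to RRAGD at 1.83 with the lengths of the table, and with representative transcripts LAMTOR5 was highest, at 6.53, and LAMTOR3 lowest, at 1.87. The GATOR1 genes, which inhibit the Rags, ran from NPRL3 at 3.53 to DEPDC5 at -1.86. With representative transcripts DEPDC5 was at -0.41. GATOR2 genes ran from SEC13 at 4.39 to WDR59 at 0.76. SEC13 also belongs to the COPII coat and the nuclear pore. The KICSTOR genes ran from KPTN at 2.90 to KICS2 at -1.32, and the table lists the latter under an older symbol. The amino acid sensor and folliculin genes were the lowest group, with a median of 0.13 log2 CPM per kilobase over 9 genes, from FNIP1 at 2.10 to SESN3 at -1.85. With representative transcripts FLCN was highest, at 2.94. CASTOR1 had no row that could be analysed here.

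Among substrates of AMPK or mTOR, 16 of 17 genes had a row, with a median of 3.23 log2 CPM per kilobase. The highest was EIF4EBP1 at 6.22, which encodes a repressor of cap-dependent translation that complex 1 inactivates. The lowest was TFEB at -0.0024, a transcription factor gene for lysosome biogenesis, and with representative transcripts the lowest was ACACB at 1.03. EIF4EBP3 had no row that could be analysed here.

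**Figure D3:**
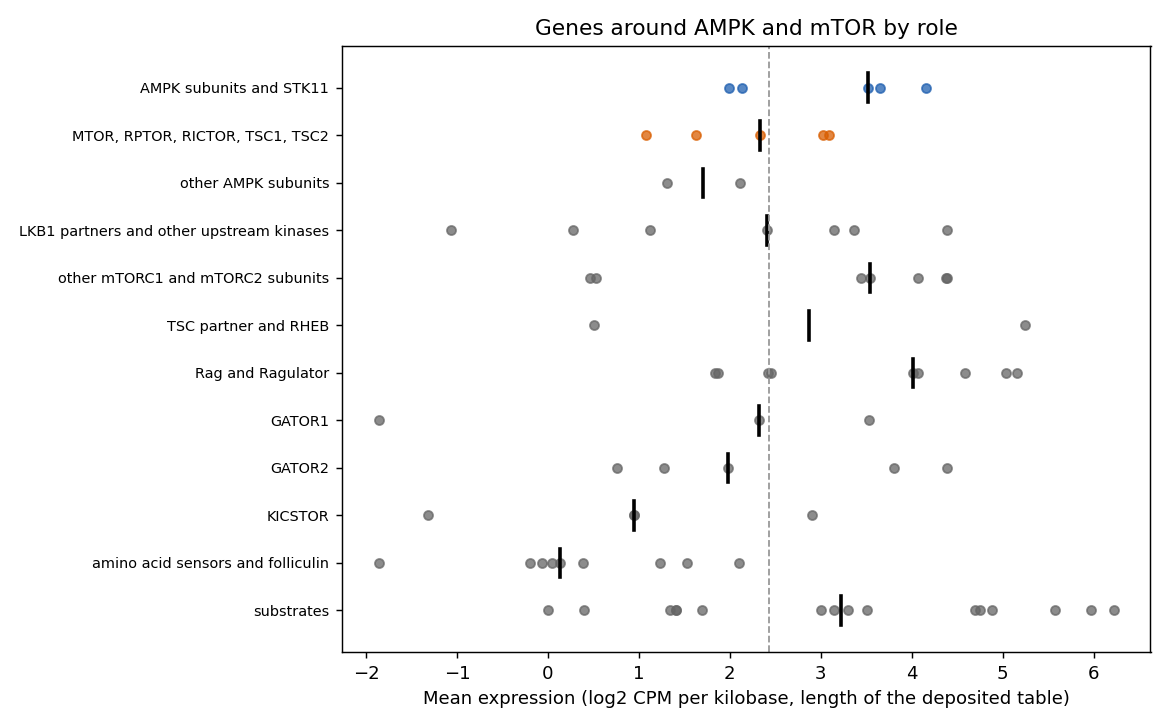
Mean expression per kilobase (log2 CPM per kilobase, horizontal axis) of the 10 genes in 2 rows and of 64 further genes of the pathway by role, with a point for each gene, a bar for the median of a row and a dashed line at the median of all genes, 2.43. Rag and Ragulator genes have the highest median, 4.01, and amino acid sensor and folliculin genes the lowest, 0.13.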

How the data were processed

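RNA of 4 samples of MDA-MB-231 Fluc cells, 2 with cordycepin and 2 with DMSO, was sequenced as 75 bp paired-end reads from stranded libraries depleted of ribosomal RNA. The paper's methods state mapping to GRCh38.p13 and counting with rsubread, whereas the submitters' processing notes name hg38, TopHat, HTSeq, DESeq and Cufflinks. Which tools made the table was not settled. The authors' deposited table gives 1 mean expression per gene as log2 CPM over the libraries, whose prior count, scaling and filter on low counts are not given in the sources used here. A filter would leave low genes without a row. The length per gene in the deposited table equalled the merged exons of GENCODE release 44 within 1% for 81.7% of genes and for 8 of the 10 genes described. The same table holds 4 columns of the authors' comparison of cordycepin with DMSO (log2 fold change, F statistic, p-value and adjusted p-value), which were not used. It holds 0 columns of values per sample, so no test between groups and no library depth, SD or confidence interval could be given.

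Levels per kilobase are mean log2 CPM less the log2 of the length in kilobases, and percentiles are the share of genes with a lower value. Of the gene IDs, 13922 were found in GENCODE, which gave gene types, overlapping exons and the representative (canonical) transcript. Groups were taken from the sample titles. The 10 genes and the lists were chosen with earlier results of these data known. Genes named are the 10 genes, the highest and lowest per kilobase of each list, genes without a row and the markers. MLST8, AKT1S1, STRADB and the genes that were highest or lowest with another length are named after their values were seen, and overlapping genes from the annotation. Alternatives were another length, protein-coding genes only, and genes above the lowest 25%. Of the computation, the merging and overlap of intervals and the percentile step were tested on simulated data. The tables were computed in Python 3.11.15 with pandas 2.3.3, numpy 2.4.6 and scipy 1.17.1, and drawn with matplotlib 3.10.9.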

Additional observations from a re-analysis of the deposited data

How the results depend on the processing

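The median percentile of the 10 genes, 73.6 among all genes, was 69.8 among protein-coding genes, 64.7 among genes above the lowest 25% and 54.5 per kilobase. For the AMPK subunits with STK11 it went from 66.9 to 62.1 among protein-coding genes, and for MTOR, RPTOR, RICTOR, TSC1 and TSC2 from 80.2 to 77.4. The median level of 2.68 log2 CPM per kilobase became 3.60 with the representative transcript, 0.63 with the gene span and, as an alternative chosen after seeing the data, 2.59 with the merged exons of GENCODE. The difference between the highest and the lowest gene, 3.07, became 3.05 with the representative transcript, between STK11 and PRKAB2. With the gene span it was 3.92, with PRKAA1 still highest and RPTOR lowest. Of the 10 genes, 1 kept its place in the order with the representative transcript and 2 kept it with the gene span, where RPTOR, whose gene is the longest, was last at -2.33. These shifts follow from the lengths, which differ between the genes.

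No paired analysis was possible because the table holds 1 mean over all libraries and no column per replicate. For the same reason leaving out a replicate was not run, and no statement on cordycepin rests on these values. Depth per library is unknown, so how precisely the lower genes were measured cannot be given.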
